A study of Drosophila melanogaster with 2 samples.

Results

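Bomanins are small secreted peptides of the Drosophila immune response. The fat body makes them and releases them into the haemolymph after infection, mainly under the control of the Toll pathway, in which the cleaved cytokine Spätzle activates the receptor Toll and frees the NF-κB factors Dif and Dorsal from the inhibitor Cactus. Flies that lack the main Bomanin gene cluster are known for poor survival of infection with fungi and Gram-positive bacteria. Short-form peptides consist of little more than the shared Bomanin motif, tailed peptides carry an extension behind it, and bicipital peptides join a pair of motifs by a linker. The fat body of the head lies under the cuticle around the brain, so heads carry these transcripts without a dissected abdomen.

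The Bomanins were taken here as every probe set annotated with a single gene symbol that begins with BomS, BomT or BomBc and a number. This gave 8 of 13966 probe sets, 1 for each of BomS2, BomS4, BomS5, BomS6, BomT2, BomT3, BomBc2 and BomBc3. RefSeq (assembly Release 6) lists 12 Bomanin genes, and BomS1, BomS3, BomT1 and BomBc1 were not analysed here because no probe set of theirs was annotated. In the RefSeq gene order 10 of the 12 form an uninterrupted cluster on arm 2R, and BomT3 and BomBc3 lie side by side on arm 3R. The genes BomS4 and BomBc2 overlap in that annotation, and several family members are close paralogs. Cross-hybridisation between them was not tested, so each value is that of the probe set and may include a relative.

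Head transcripts of adult males of the inbred stock w1118, written w118 in the source names, were read as poly(A) RNA on 2 Affymetrix DrosGenome1 arrays, 1 for each group. The unexposed heads were harvested at adult day 3 from males held in constant darkness in food bottles of about 200 flies at 25 °C and 70% humidity. The paraquat heads were also harvested at adult day 3, from males of the same strain and housing that were moved at adult day 2 to sucrose with 15 mM paraquat for 30 h. Paraquat is a redox-cycling herbicide that generates superoxide in cells, and the study asked how oxidative stress alters transcript levels in the head. Diet differs between the groups along with paraquat, and the effects of these 2 factors cannot be told apart. Neither group was infected, as far as the labels say. Flies were pooled for each array, and with 1 array a group no difference below has a replicate check and no p-value was computed.

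Each array was scaled to a common median intensity of 825.2, and intensities under 477.3, the 40th percentile of the averaged arrays, were raised to this floor. A probe set at or above the floor on both arrays is called measured. Log2 ratios are paraquat over unexposed, and the error given with each is the array error, built from control probe sets, which leaves out all spread between flies and RNA preparations. The floor was reached by 8333 of the 13966 probe sets without paraquat, by 8366 with it and by 7425 on both arrays. The 9 spiked-in controls had log2 ratios from -0.07 to 0.29. The 3 probe sets for 18S ribosomal RNA, which poly(A) selection should remove, had log2 ratios from -1.01 to -0.92. The ratio of 5′ to 3′ signal, a sign of transcript integrity, was 0.365 (unexposed) and 0.403 (paraquat) for GAPDH. It was 0.0858 and 0.102 for eIF-4a, and 0.0653 and 0.0846 for ACTIN.

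All 8 Bomanin probe sets were measured, and most stayed bright after paraquat. Of the 8, 7 had a lower value on the paraquat array, against 47.9% of all measured probe sets, and 1, BomT2, a higher one. At least 2-fold lower were 2, BomBc3 and BomS5, against 8.22% of all measured probe sets, and none was at least 2-fold higher (8.15% of all). BomBc3 stood apart at 12.7-fold lower, while the other 7 lay between 2.20-fold lower and 1.15-fold higher. The median log2 ratio of the 8 was -0.43, and -0.36 without BomBc3, beside 0.03 over all measured probe sets. In whole heads, fewer fat body cells and less RNA in each cell cannot be told apart as the source of a lower value.

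**Figure D1:**
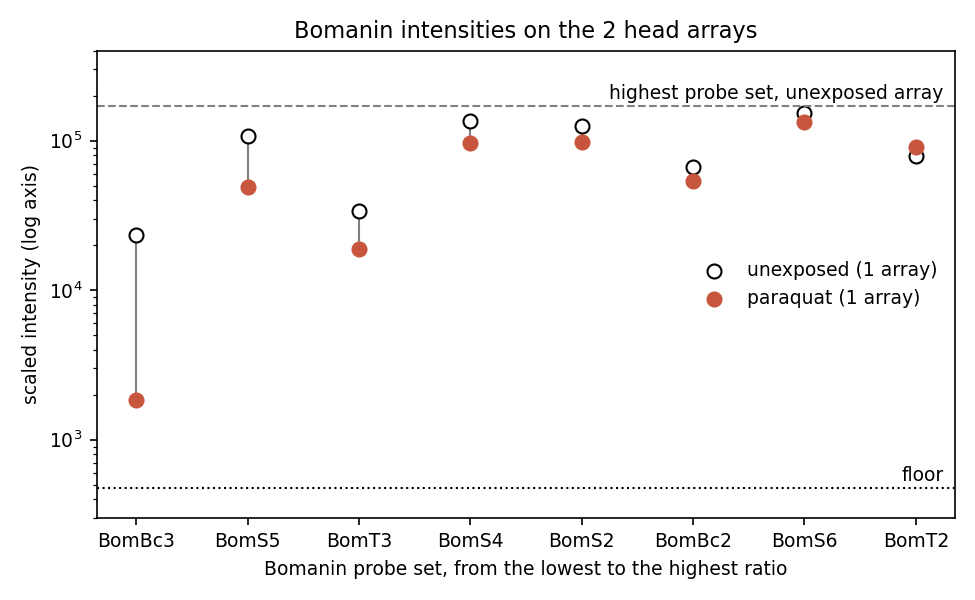
Scaled intensity (log axis) of each Bomanin probe set on the unexposed array (open circles) and the paraquat array (filled circles), 1 array per group, with the floor (dotted) and the highest probe set of the unexposed array (dashed). BomBc3 went from 23297 to 1837, still above the floor of 477.3, while the other 7 stayed at 18951 or more; heights of different probe sets are not comparable as transcript levels.

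The short-form peptides, the most abundant class in infected haemolymph, were represented by 4 probe sets, all with lower values on the paraquat array. BomS5 had an intensity of 107884 in unexposed heads and 49045 after paraquat. This is 2.20-fold lower, a log2 ratio of -1.14 ± 0.12 with a 95% interval of array error from -1.36 to -0.91. That interval includes a 2-fold difference, so the place of BomS5 on either side of 2-fold is within array error, and it was -0.93 after quantile normalization and -0.998 after loess. BomS4 stood at 135886 and 96554 (log2 -0.49 ± 0.12), a value 71.1% of the unexposed one.

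BomS2, whose peptide is also known as IM2, one of the immune-induced molecules first seen in the haemolymph of infected flies, stood at 125738 unexposed and 97826 with paraquat. Its log2 ratio was -0.36 ± 0.12 (interval from -0.59 to -0.14). BomS6 was the least different short form, at 154489 and 132872, with a log2 ratio of -0.22 ± 0.12 and an interval from -0.44 to 0.01 that includes 0. BomS2, BomS4 and BomS6 could not be separated from each other by their ratios, with differences of 0.13 ± 0.16 (BomS2 minus BomS4), -0.14 ± 0.16 (BomS2 minus BomS6) and -0.28 ± 0.16 (BomS4 minus BomS6). BomS5 was lower than each of them beyond array error, by 0.64 ± 0.16 against BomS4, the nearest.

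The tailed peptides gave the highest and one of the lower ratios. BomT2, from the cluster on arm 2R, was the only Bomanin with a higher value after paraquat, at 78932 unexposed and 91149 with paraquat. The log2 ratio of 0.21 ± 0.12 had an interval from -0.02 to 0.44, so array error alone includes no difference. BomT3, on arm 3R, stood at 33775 and 18951, or 1.78-fold lower (log2 -0.83 ± 0.12, interval from -1.07 to -0.60). The ratios of these tailed forms differed by 1.04 ± 0.17 (BomT2 minus BomT3, interval from 0.71 to 1.37).

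The bicipital peptides differed most from each other. BomBc2 stood at 66523 unexposed and 53934 with paraquat, a log2 ratio of -0.30 ± 0.12 (interval from -0.53 to -0.07). This value was 0.02 after quantile normalization, so its direction depends on the scaling. BomBc3 stood at 23297 unexposed and 1837 with paraquat, 7.88% of the unexposed value, with a log2 ratio of -3.66 ± 0.31 (interval from -4.26 to -3.07). Of the 7425 measured probe sets, 16 had a lower ratio than BomBc3. That count leaves out probe sets under the floor after paraquat. Some of these were lowered more than BomBc3, such as the fat body gene fit, at 46083 unexposed and 165 with paraquat.

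**Figure D2:**
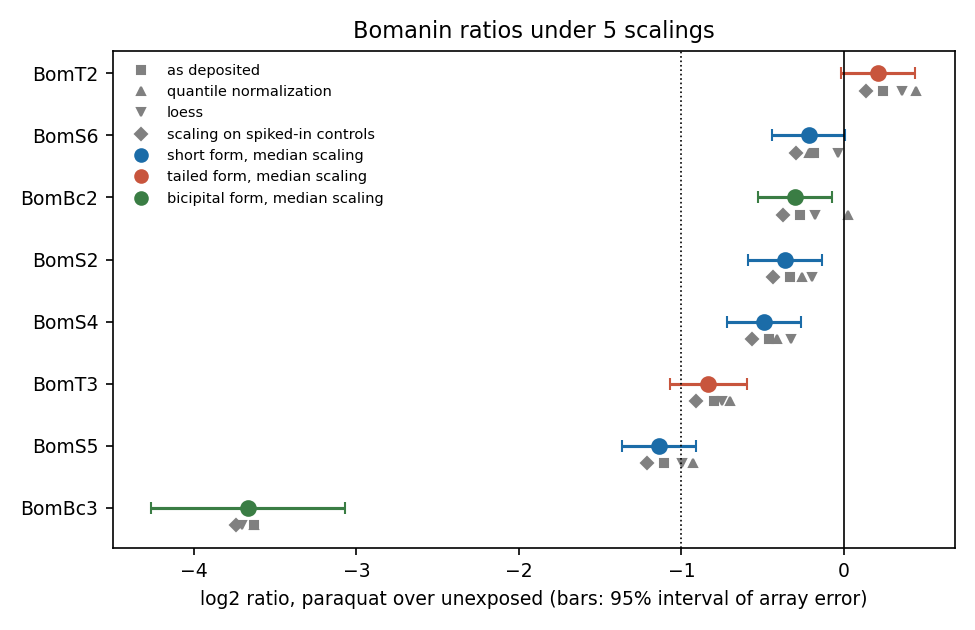
Log2 ratio of paraquat over unexposed for each Bomanin after median scaling (coloured by form, bars the 95% interval of array error) and, in grey below each, under 4 other scalings. BomBc3 lies at -3.66, BomS5 lies around the dotted line at -1, and BomBc2 is above 0 after quantile normalization alone.

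Between members, 28 pairs of ratios were compared, and the 95% interval of array error left out 0 in 21 of them. The share among pairs of other probe sets was not computed, so this count cannot be read as a trait of the Bomanins. The quartiles of the ratios of measured probe sets at least as bright as the dimmest Bomanin were -0.55 and 0.30. All 7 pairs with BomBc3 were among the 21, with BomBc3 lower by 2.53 ± 0.33 than BomS5, the next in order, and by 3.87 ± 0.33 than BomT2. In the order from lowest to highest ratio (BomBc3, BomS5, BomT3, BomS4, BomS2, BomBc2, BomS6, BomT2), the neighbours BomS5 and BomT3 were not separated (-0.30 ± 0.17), nor were any of BomS4, BomS2, BomBc2 and BomS6. The neighbours BomT3 and BomS4 differed by 0.34 ± 0.17, just beyond the interval, and BomS6 and BomT2 by 0.43 ± 0.16. Array error is not spread between flies, and whether any of these gaps exceeds that spread was not tested.

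Peptide form did not sort the ratios. The short forms ran from -1.14 to -0.22, the tailed from -0.83 to 0.21 and the bicipital from -3.66 to -0.30, and these ranges overlap. By position, the 6 probe sets of the 2R cluster had a median of -0.33 (from -1.14 to 0.21), and both genes on 3R, BomT3 and BomBc3, lay at -0.83 and -3.66. The neighbours BomT3 and BomBc3 differed by 2.83 ± 0.33. Of the genes next to the Bomanins with a probe set of their own, chosen by position, Tango8 beside the 2R cluster had a log2 ratio of 0.04 ± 0.12 on its measured probe set, and the chitinase-like growth factor gene Idgf5 on the other side -0.76 ± 0.19. Beside the 3R pair, CG13408 and CG13407 were under the floor on both arrays.

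Brightness bears on how these ratios read. By intensity on the unexposed array BomS6 ranked 5, BomS4 20 and BomS2 42 among the 13966 probe sets, and BomS6 stood at 91.0% of the highest intensity there and 80.5% on the paraquat array. Whether the array compresses differences at that height was not tested for the Bomanins. Of the 887 measured probe sets whose mean over both arrays was at least that of BomBc3, the dimmest Bomanin, 13.4% were at least 2-fold lower and 53.4% had a ratio below 0, with a median of -0.04. Of those 887, 10 had a lower ratio than BomBc3, again without probe sets under the floor after paraquat.

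**Figure D3:**
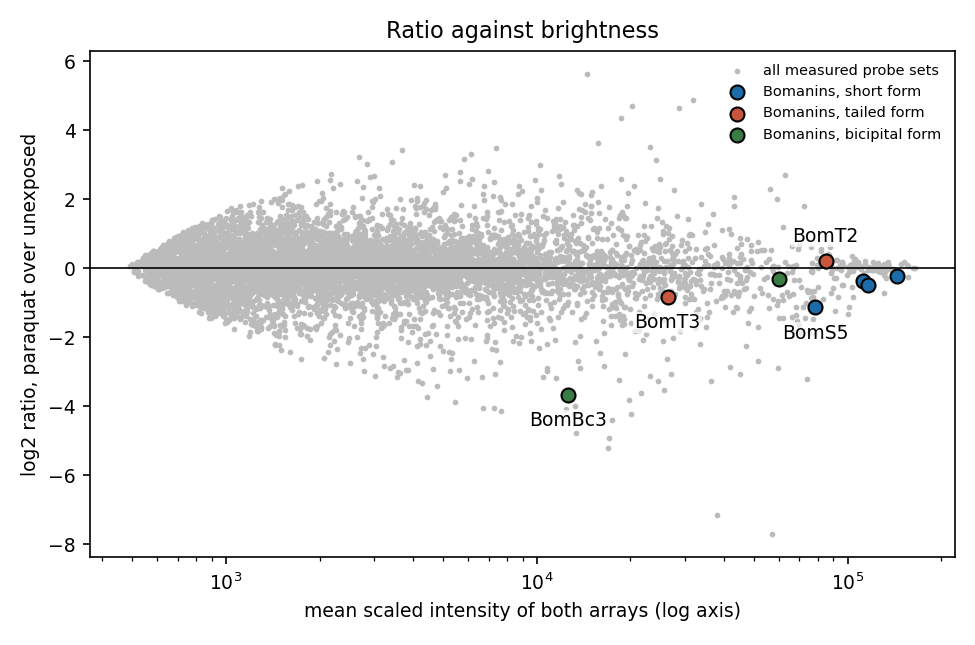
Log2 ratio of paraquat over unexposed against the mean scaled intensity of both arrays (log axis) for the 7425 measured probe sets (grey) and the 8 Bomanins (coloured by form). The Bomanins other than BomBc3 lie at the bright end, between -1.14 and 0.21, and BomBc3 lies near the lower edge.

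The 5 genes whose pair of log2 intensities lay nearest to the median Bomanin, by Euclidean distance over the 2 arrays, were ox, cype, Ald1, CG11368 and Sam-S, at distances from 0.21 to 0.25. Their log2 ratios ran from -0.65 (ox) to -0.08 (Sam-S). With 2 arrays this likeness is one of brightness and ratio alone.

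Other peptides of the same immune response were lower by more than most Bomanins. Drs encodes the antifungal peptide Drosomycin, the usual readout of Toll signalling, and stood at 73628 unexposed and 10174 with paraquat (log2 -2.86 ± 0.13). All 7 Bomanins other than BomBc3 were less lowered than Drs beyond array error, by between 1.72 (BomS5) and 3.06 (BomT2) on the log2 scale. Drsl5, a relative of Drosomycin, had a ratio of -2.02 ± 0.12, and the same 7 were less lowered than it by between 0.88 and 2.23. BomBc3 went the other way beyond array error, with a difference of -0.81 ± 0.33 to Drs and -1.65 ± 0.33 to Drsl5. Of all measured probe sets 8.22% were at least 2-fold lower, so most of them were also less lowered than Drs and Drsl5. BomBc3 was closer to DptB, an antibacterial peptide that depends mainly on the Imd pathway, which stood at 36984 and 2625 (log2 -3.82 ± 0.23). The difference between BomBc3 and DptB was 0.15 ± 0.38, with an interval from -0.60 to 0.90.

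Across the antimicrobial peptide list, 8 of 20 genes could be read by a single-symbol probe set and 4 were measured. All 4 passed 2-fold lower, and the list median was -3.34. It was -2.86 over 3 genes with the floor at the highest absent control or at the 60th percentile, and -2.44 over 2 genes at the 80th. Mtk, the antifungal metchnikowin, was at 75369 unexposed and 526 with paraquat, which is under the highest absent control of that array (533), so it is given as at least 141-fold lower. Def and AttD, not above the floor after paraquat, were lower by at least 14.5-fold and by at least 3.86-fold against the same control. CecB and Drsl6 were under the floor on both arrays.

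Among other immune-induced secreted peptides, 2 of 4 genes with a probe set were measured. IM33, a small secreted peptide, stood at 113714 and 40555 (log2 -1.49 ± 0.12). Bbd, the bombardier protein that short-form Bomanins need to accumulate in the haemolymph, stood at 48927 and 18059, 2.71-fold lower (log2 -1.44 ± 0.12). All 7 Bomanins other than BomBc3 had higher ratios than Bbd, and for 6 of the 7 the difference was beyond array error. For BomS5 it was 0.30 ± 0.17. BomBc3 was more lowered than Bbd, with a difference of -2.23 ± 0.33. Most measured probe sets also lay above Bbd, since 8.22% were at least 2-fold lower. BaraB and TotB were under the floor on both arrays.

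**Figure D4:**
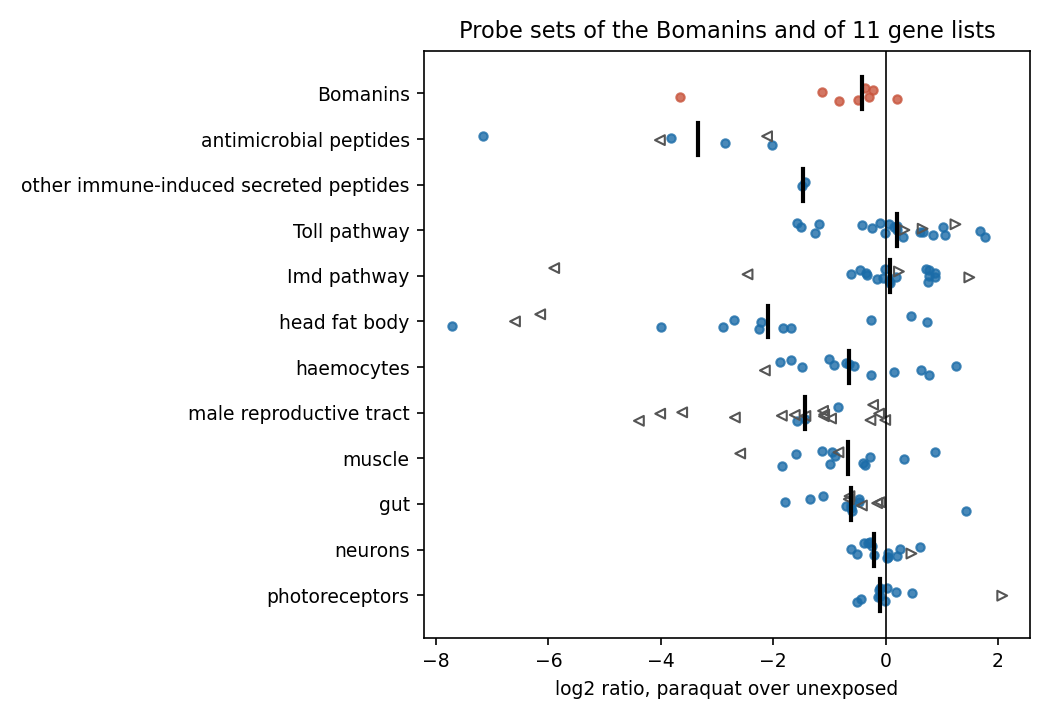
Log2 ratio of paraquat over unexposed for probe sets of the Bomanins and 11 gene lists. Filled circles are measured probe sets, open triangles have 1 array kept at the floor and so show bounds, and the black bar is the list median over measured genes: -0.43 for Bomanins, -3.34 for antimicrobial peptides, -2.09 for head fat body and 0.20 for the Toll pathway.

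The Toll pathway upstream of the Bomanins went both ways. Of 23 listed genes with a probe set, 19 were measured, and 4 passed 2-fold in each direction, with a list median of 0.20. With the floor at the 60th percentile 11 were measured and 3 of these calls were left, SPE, nec and cact. At the 80th percentile floor the median over 7 genes was -0.10. SPE, the enzyme that processes Spätzle, stood at 18285 and 7616 (-1.26 ± 0.14), and the serpin nec, which restrains the cascade, at 11179 and 4923 (-1.18 ± 0.16). The inhibitor cact, itself a Toll target, stood at 6074 and 12702 (1.06 ± 0.15).

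The other calls rest on dim probe sets. Past 2-fold lower were the β-glucan sensor GNBP3 (-1.58 ± 0.66) and the protease grass (-1.51 ± 0.83), and past 2-fold higher the kinase pll (1.77 ± 0.72), the adaptor Myd88 (1.67 ± 0.73) and the NF-κB factor dl (1.01 ± 0.67). For grass and dl the 95% interval of array error includes 0. The protease psh, which also acts upstream of Spätzle, was higher, at 2611 and 3992 (0.61 ± 0.26). The related protease Hayan (0.85 ± 1.12) and spirit (0.67 ± 1.02) had errors larger than their ratios. Gprk2, a kinase needed for full Toll signalling, reached the floor only after paraquat. Its log2 ratio was 1.24 ± 1.18 against the floor and 1.08 against the highest absent control, and the 95% interval of array error includes 0. For pll, a further probe set reached the floor only after paraquat.

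The ligand spz (0.20 ± 0.15), the receptor Tl (-0.10 ± 0.19), the adaptor tub (0.16 ± 0.24) and Dif, the main Toll factor in adult flies (0.05 ± 0.58), lay within the interval of array error around 0. In the Imd pathway, which answers mainly Gram-negative bacteria, none of 15 measured genes passed 2-fold in either direction, and the median was 0.08. Its NF-κB factor Rel was at 4568 and 8447 (log2 0.89 ± 0.17). PGRP-SB1 and PGRP-SC2, secreted peptidoglycan recognition proteins on that list, were not above the floor after paraquat, which bounds them at 53.3-fold or more and 4.91-fold or more below the unexposed array, against the highest absent control. The adaptor Fadd reached the floor only after paraquat (362 to 1341). Its log2 ratio was 1.49 ± 1.16 against the floor and 1.33 against the highest absent control. The interval of array error for Fadd includes 0, and the ratio was 0.002 with the floor at the 60th percentile.

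Markers of the tissues that make Bomanins, or that could be carried into a head preparation, moved on the same arrays. Of 12 head fat body genes with a probe set, 10 were measured, and 7 passed 2-fold lower and none 2-fold higher. Their median was -2.09, and the summed intensity of the list went from 702722 to 130686. Of the 10, 2 had ratios above 0, Apoltp (0.45 ± 0.12) and Yp2 (0.74 ± 0.95). Lsp2 (-7.72 ± 0.97), the secreted lipase-like sxe2 (-3.998 ± 0.35), Obp99b (-2.89 ± 0.12) and the transferrin Tsf1 (-2.70 ± 0.12) were lowest, while fit was lower by at least 86.4-fold and tobi by at least 63.3-fold. With paraquat Lsp2 stood at 539, just above the highest absent control of that array (533). Its ratio was at most -6.41 with the floor at the 60th percentile and at most -4.96 at the 80th. The 7 Bomanins other than BomBc3 had ratios above the fat body median, and BomBc3 was below it. Most measured probe sets also lay above that median, since 8.22% were at least 2-fold lower.

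Haemocytes, the blood cells that also express some immune peptides, had 13 measured genes of 15, 4 of them at least 2-fold lower and 1 higher, with a median of -0.64 and summed intensities of 46186 and 29431. The lowest were the basement membrane collagens Col4a1 (-1.88 ± 0.30) and vkg (-1.68 ± 0.31) and the prophenoloxidase PPO1 (-1.48 ± 0.40), and NimC4 was higher (1.24 ± 0.82). Hml, a marker of plasmatocytes, had a ratio of -0.70 ± 0.19, and NimC1 was under the floor on both arrays. Muscle had a median of -0.67 over 9 genes, with 3 past 2-fold lower, none past 2-fold higher and summed intensities of 237041 and 134875. Gut enzymes had a median of -0.62 over 10 genes, with 3 past 2-fold lower, but the amylase Amy-d passed 2-fold higher, at 2847 and 7641 (1.42 ± 0.23). The male reproductive tract had 3 measured genes of 24, with 18 at or above the floor on the unexposed array and a summed intensity of 53431 there against 2970. The list sums include negative intensities. For this list the paraquat sum therefore lies below the value of Mst84Dc alone (3296), and the 2 sums do not give the size of the loss. Photoreceptor genes, which define the head, were mostly bright, with a median of -0.10 over 9 genes and a sum of 512076 to 479329. Of the 9, 6 had ratios below 0, among them chp (-0.51 ± 0.12) and inaD (-0.44 ± 0.12), and 3 above. The photoreceptor median was 0.12 after quantile normalization and 0.08 after loess. Neuronal genes had a median of -0.21 over 9. The part of fat body content, carried-over body tissue or diet in the Bomanin values was not tested.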

How the data were processed

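The authors deposited linear intensities, 1 value for each probe set and array, some of them negative. From the values, the authors scaled each array to a mean of 2500.0 after trimming 2% of probe sets at each end. Summarising software: not given in the sources used here. Gene symbols came from the platform's 2016 annotation. Of 13966 without the 44 controls, 12443 had a single symbol, 327 several and 1196 none. RefSeq was used for names and gene order.

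Arrays were scaled to the median (factors 1.01 and 0.99), floored and put on the log2 scale. The array error combines the SD of 46 absent-control intensities (358.3) with the SD of 9 spiked-in log2 ratios (0.12), and its 95% interval is 1.96 times that error. It covers array error only, and the number of arrays limits precision. The spiked-in values come from several probe sets each for BioB, BioC, BioDn and CreX, and each absent control was read on both arrays. These values are not independent, so the interval may be too narrow. A gene's measured probe sets were averaged. Computation used Python 3.11.15, numpy 2.4.6, pandas 2.3.3 and statsmodels 0.14.6, tested on simulated data.

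The members and the 11 gene lists were chosen with earlier results of these data known. The naming rule covers all Bomanins, the immune lists, up to 4 measured genes with the largest ratios and the largest bounds of each cell type list, and the 5 nearest genes; not every gene it covers is named. Named outside that rule, after values were seen, are Hml, NimC1, Apoltp and Yp2. Genes beside the Bomanins were named by position. Alternatives were other floors, other scalings and a pseudocount.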

Additional observations from a re-analysis of the deposited data

How the results depend on the processing

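The count of 2 Bomanins at least 2-fold lower became 1 under quantile normalization and under loess, where BomS5 crossed the line, also with the paraquat array kept at the floor. It became 1 with the floor at the 80th percentile, where BomBc3 was no longer measured and is given as a log2 ratio of at most -2.68, and 1 without BomBc3. Under quantile normalization BomBc2 turned to 0.025, BomS5 was -0.93, BomT3 -0.70 and BomT2 0.45. Under loess the median was -0.26, with BomS2 -0.20, BomS4 -0.33, BomBc2 -0.18, BomS6 -0.037, BomS5 -0.998 and BomT2 0.36. The loess curve follows bright probe sets, so it removes part of any shift that they share. Under the other alternatives (floors at the 60th percentile and at the highest absent control, deposited values, a pseudocount, and, chosen after seeing the data, scaling on the spiked-in controls) each of these values moved by less than 1 array error. Over all alternatives BomBc3 ran from -3.74 to -2.68 and BomS6 from -0.29 to -0.037. Among the other genes that the naming rule covers, 644 values moved by less than 1 array error, 60 by more, and none larger than its array error changed sign. The floor at the 20th percentile was not run, because it lies at -20.4 and has no logarithm, and the count of a promoter pattern was not run. No paired analysis was possible because each group held 1 array. Near the floor the array error reaches 1.54, so dim genes such as grass and pll have wide errors.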
